A study of Mus musculus with 12 samples.

Results

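The 10 genes described here are 4 Id genes (Id1, Id2, Id3 and Id4), 3 genes for BMP ligands (Bmp2, Bmp4 and Bmp6) and 3 genes for inhibitors that act inside or at the surface of the receiving cell (Smad6, Smad7 and Bambi). They were matched exactly by gene name among the 55335 genes of the count files, and all 10 passed the filter on low counts that kept 22635 genes for testing. The 12 RNA-seq libraries came from muscle stem cells (MuSCs) sorted by FACS from the hindlimb of Pax7-ZsGreen mice, a reporter strain in which cells that express the MuSC transcription factor Pax7 carry a green fluorescent protein. Fresh cells were lysed as they were sorted. The other cells were grown on plastic coated with Matrigel and fibronectin, in a rich medium with serum and FGF, for 2 days (2dU), for 5 days (Control), or for 2 days followed by 3 days under a compression pillar (Compressed). Each group had 3 libraries, and the labels do not say which of them came from the same sort or the same animals.

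BMPs are secreted ligands that bind paired type I and type II receptors, which phosphorylate Smad1, Smad5 and Smad9, and these enter the nucleus with Smad4. The Id genes are among the best known targets of this pathway. Id proteins lack a DNA-binding domain and hold the E proteins (Tcf3, Tcf4 and Tcf12), the partners that MyoD and myogenin need on DNA, in inactive pairs. Smad6, Smad7 and Bambi are also induced by the pathway or by its TGF-beta counterpart and damp it, Smad6 and Smad7 as inhibitory Smads and Bambi as a pseudoreceptor that lacks a kinase. In myoblasts BMP signaling is known to hold back differentiation, through Id1 among others.

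In the mm10 coordinates of the count files, Id1 lies at chr2:152736251-152737410 and Id3 at chr4:136143497-136145755, both on the plus strand, and Id2 at chr12:25093799-25097140 on the minus strand. Id4 lies at chr13:48261228-48266026 and Bmp6 at chr13:38345107-38500302, both on the plus strand. Bmp2 lies at chr2:133552159-133562885 on the plus strand, and Bmp4 at chr14:46383520-46390669 and Smad6 at chr9:63953076-64022059 on the minus strand. Reads were counted without regard to strand. Exons of a gene on the other strand cover 5.74% of the exon bases of Bmp6 (Txndc5), 4.44% of those of Id4 (A330033J07Rik and Gm49291) and 3.96% of those of Bmp4 (Gm15217), and reads there cannot be told apart.

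RefSeq promoters, which run from 250 bases before to 50 bases after a transcription start, were found for 6 of the 10 genes on GRCm38.p6, the assembly also called mm10. They were searched on both strands for GGCGCC, a GC-rich element bound by BMP Smads, for CAGAC, an element bound by Smad3 and Smad4, and for the E-box CANNTG, the site of MyoD and E proteins, and also for the full cyclic AMP response element TGACGTCA, the CCAAT box and the TATA box TATAAA. No match of 1 of these motifs overlapped a match of another in the 6 promoters. The windows of 3 genes are printed to set the Id gene that differed most between Compressed and 2dU cells beside a BMP ligand gene that was called in that comparison and an inhibitor gene that was not. Each line gives the 250 bases before the start, 5′ to 3′ on the strand of the gene, with matches to the Smad elements and the E-box in capitals.
Id4 (chr13:48260866-48261115, plus strand): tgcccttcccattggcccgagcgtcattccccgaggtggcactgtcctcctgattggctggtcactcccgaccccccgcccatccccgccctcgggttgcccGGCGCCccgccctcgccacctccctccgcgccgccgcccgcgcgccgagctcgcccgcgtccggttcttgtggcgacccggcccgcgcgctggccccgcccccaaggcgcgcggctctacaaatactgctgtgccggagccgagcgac
Bmp4 (chr14:46390670-46390919, minus strand): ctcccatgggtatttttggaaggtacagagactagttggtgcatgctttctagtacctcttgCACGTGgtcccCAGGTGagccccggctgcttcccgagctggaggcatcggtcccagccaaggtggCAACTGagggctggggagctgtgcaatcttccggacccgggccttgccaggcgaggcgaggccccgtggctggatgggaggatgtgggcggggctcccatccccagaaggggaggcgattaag
Smad6 (chr9:64022060-64022309, minus strand): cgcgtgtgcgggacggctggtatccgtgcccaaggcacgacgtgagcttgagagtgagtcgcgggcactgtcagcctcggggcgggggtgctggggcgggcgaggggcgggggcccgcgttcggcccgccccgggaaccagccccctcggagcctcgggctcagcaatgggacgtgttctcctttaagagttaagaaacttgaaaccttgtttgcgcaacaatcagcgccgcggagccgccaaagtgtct

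GGCGCC was found in the promoters of Id2 and Id4, 2 of the 6, against 11.9% of all 32851 promoters in the table. CAGAC was found in those of Id3 and Bmp6, against 49.6% of all promoters. The E-box was found in those of Bmp4, Bmp6, Id2 and Smad6, against 72.3% of all promoters, and the match of Smad6 lies after the start, outside the printed bases. The CCAAT box was found in Id2, Id4 and Smad6, against 37.4% of all promoters, and the cyclic AMP element (1.79% of all) and the TATA box (13.6% of all) in none of the 6. These matches describe the letters of the windows only.

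Between 12540745 (Compressed 5) and 62424851 (Compressed 4) reads per library were counted on genes. Levels are given as RPKM (reads scaled to exon length and to TMM-scaled library size), so that genes of different length can be set side by side. Olfactory, vomeronasal and taste receptors, defensins and keratin-associated proteins, 2106 autosomal genes most of which muscle cells are not known to use, had between 0.634 and 7.13 reads per kilobase in 4 libraries (Control 1, Control 6, Fresh 4 and Fresh 5) and at most 0.220 in the other 8. At that density 13.5 of the 100 Bmp2 reads, 8.57 of the 149 Bmp4 reads and 14.9 of the 101 Bmp6 reads of Control 1 would be matched. The median log2 fold change of all tested genes was -1.05 between Compressed and Control cells and 0 between Compressed and 2dU cells. With reads at the density of these families subtracted, the median between Compressed and Control cells was -0.24 over the genes then tested.

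The 3 BMP ligand genes were high in Fresh cells, low after 2 and 5 days of culture without compression, and high after compression. Bmp4, a ligand of the BMP2 and BMP4 subfamily, stood at 46.0, 114 and 44.4 RPKM in Compressed 4, 5 and 10, and at 2.88, 0.0776 and 0.326 RPKM in Control 1, 2 and 6. In 2dU cells Bmp4 was at 1.24, 0.575 and 0.690 RPKM, and in Fresh cells at 25.9, 26.4 and 22.3 RPKM. Every Compressed library was thus above every library of the other groups. The fitted log2 fold change of Bmp4 was 5.96 against Control (SE 1.03, edgeR adjusted p = 0.0011) and 6.34 against 2dU (SE 1.05, edgeR adjusted p = 0.000659).

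Bmp6, whose product belongs to the BMP5, BMP6 and BMP7 subfamily and is best known as a regulator of iron balance made by endothelial cells of the liver, had the largest fold change of the 10 genes. It was at 96.0, 20.8 and 89.4 RPKM in Compressed 4, 5 and 10 and at 1.13, 0.0537 and 0.0878 RPKM in Control 1, 2 and 6. The 2dU libraries held 3.87, 2.35 and 1.54 RPKM and the Fresh libraries 32.5, 22.3 and 35.9 RPKM. The Control libraries were below all 2dU libraries, and Compressed 5, the library with the fewest reads, was the only Compressed library below the Fresh libraries. The log2 fold change was 7.35 against Control (SE 1.10, edgeR adjusted p = 0.000387) and 4.73 against 2dU (SE 0.970, edgeR adjusted p = 0.00302).

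Bmp2, the ligand closest to Bmp4 in sequence, was at 26.8, 13.8 and 9.88 RPKM in the Compressed libraries 4, 5 and 10 and at 1.22, 0.0491 and 0.220 RPKM in the Control libraries 1, 2 and 6. In 2dU 1 and 2 it was at 0.351 and 1.44 RPKM and no read was counted in 2dU 3, while Fresh cells held 21.5, 33.4 and 32.1 RPKM. Compressed and Fresh libraries overlapped, and both lay above all Control and 2dU libraries. The log2 fold change was 5.08 against Control (SE 1.36, edgeR adjusted p = 0.0157) and 4.83 against 2dU (SE 1.35, edgeR adjusted p = 0.0177).

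The Control level of these genes rested on few reads. Control 2 held 5 reads of Bmp2, 5 of Bmp4 and 6 of Bmp6, and Control 6 held 16, 15 and 7. Without Control 1 the log2 fold changes against Control were 6.98 for Bmp2, 8.41 for Bmp4 and 9.92 for Bmp6, and without Control 6 the edgeR adjusted p of Bmp2 was 0.0523. Without Compressed 5 the log2 fold change of Bmp4 was 5.37 against Control and 5.75 against 2dU, and that of Bmp2 against 2dU was 6.56 without 2dU 2 and 4.23 without 2dU 3. The direction was the same in each of these. With the replicate number as a block in the fit, Bmp2 and Bmp6 were not called against 2dU (edgeR adjusted p of 0.31 and 0.218).

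**Figure D1:**
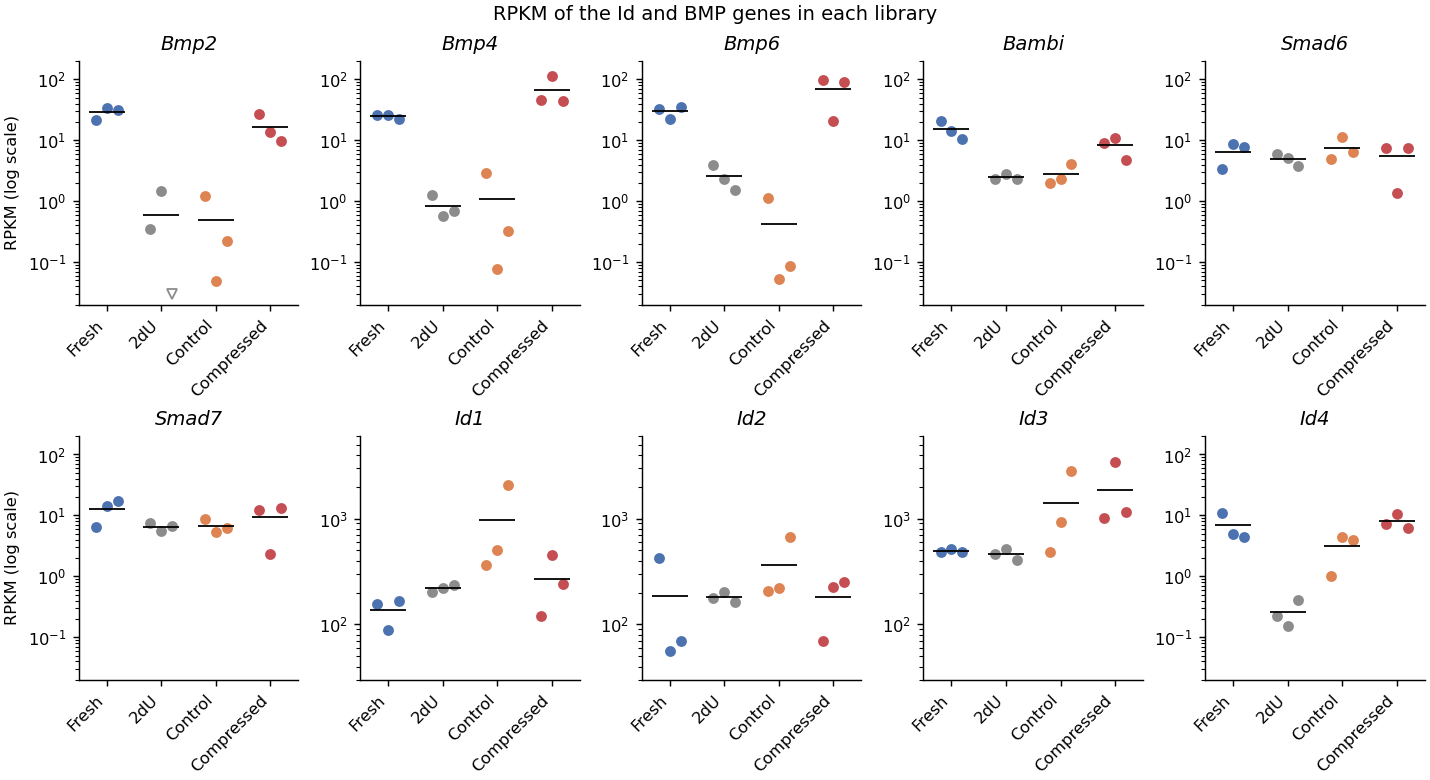
RPKM of each gene (log scale) in the 3 libraries of each group, with points for libraries in the order of their replicate numbers, black lines for group means and an open triangle for the library with no read of Bmp2. All 3 Compressed libraries lie above all 3 Control libraries for Bmp2, Bmp4, Bmp6, Bambi and Id4, while the groups overlap for Smad6 and Smad7.

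Summed over the 3 ligand genes, the Compressed libraries held 144 to 169 RPKM and the Fresh libraries 79.9 to 90.3 RPKM, against 2.23 to 5.47 RPKM in 2dU and 0.180 to 5.23 RPKM in Control cells. Bmp2 was the lowest of the 3 genes in every Compressed library, and the highest of the 3 in Fresh 4. None of the 3 ligand genes passed the test between Compressed and Fresh cells, where the log2 fold changes were 1.45 for Bmp4 (SE 0.846, edgeR adjusted p = 0.224) and 1.19 for Bmp6 (SE 0.840, edgeR adjusted p = 0.328). The Compressed libraries of Bmp4 lay above all Fresh libraries all the same.

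Markers of cell types other than MuSCs moved with the ligand genes. The summed level of 15 endothelial markers was 406 to 451 CPM in Compressed cells and 1712 to 2893 CPM in Fresh cells, against 8.69 to 58.5 CPM in Control and 13.2 to 17.6 CPM in 2dU cells, and 10 of the 15 were called higher in Compressed than in Control cells and 14 against 2dU. Of all tested genes 9.14% were called higher and 13.4% lower against Control, and 16.0% and 8.63% against 2dU. Each of the 15 endothelial markers had a read in Compressed 4 and 10 and 14 of them in Compressed 5. The sum of 11 fibroadipogenic markers was 2592 to 4356 CPM in Compressed, 5266 to 33727 CPM in Fresh, 124 to 287 CPM in Control and 265 to 304 CPM in 2dU cells. In Compressed 4, 5 and 10 it was mostly Gsn (1740, 1437 and 3523 CPM), and Pdgfra had 2 reads each in Compressed 5 and 10. Of the 11 markers 6 were called higher and 0 lower in Compressed than in Control cells, and 10 and 0 against 2dU. The sum of 8 glial markers was 184 to 615 CPM in Compressed, 463 to 794 CPM in Fresh, 5.83 to 15.4 CPM in Control and 2.17 to 2.70 CPM in 2dU cells. In Compressed 4, 5 and 10 it was mostly Mbp (174, 527 and 112 CPM), and Sox10 had 9 and 3 reads in Compressed 5 and 10. Of the 8 markers 3 were called higher and 0 lower in Compressed than in Control cells, and 7 and 0 against 2dU. Of 9 pericyte and smooth muscle markers 5 were called higher and 0 lower in Compressed than in Control cells, and 6 and 0 against 2dU. Their sum, 284 to 444 CPM in Compressed, 64.1 to 733 CPM in Control, 822 to 1086 CPM in Fresh and 63.0 to 88.3 CPM in 2dU cells, was mostly Acta2 in Control 2 and 6 (635 and 716 CPM). The 16 immune markers summed to 41.2 to 216 CPM in Compressed and 1033 to 3922 CPM in Fresh cells. In Control cells their sum was 1.88 to 174 CPM and in 2dU cells 0.820 to 2.44 CPM. Ptprc, the pan-leukocyte marker, was at 0 reads in every Compressed and 2dU library. Of the 16 markers 1 was called higher and 1 lower in Compressed than in Control cells, and 7 and 0 against 2dU.

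Of the 12 MuSC markers 6 were called higher and 0 lower in Compressed than in Control cells, and 7 and 1 (Sdc3) against 2dU. Their sum was 7811 to 11325 CPM in Compressed, 771 to 1025 CPM in Control, 1187 to 1414 CPM in 2dU and 2308 to 5651 CPM in Fresh cells. It was carried by Sdc4 and Vcam1, at 5053 and 3345 CPM in Compressed 4. The 10 markers of mature myofibers summed to 98.0 to 201 CPM in Compressed and 165 to 2615 CPM in Control cells. Their sum was 52.4 to 92.2 CPM in 2dU and 48.5 to 2958 CPM in Fresh cells. Of these 10 markers 1 was called higher and 3 lower in Compressed than in Control cells, and 5 and 0 against 2dU. The part of these other cell types in the ligand results was not tested. In libraries of whole cultures, fewer cells of a type and less RNA per cell cannot be told apart.

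**Figure D2:**
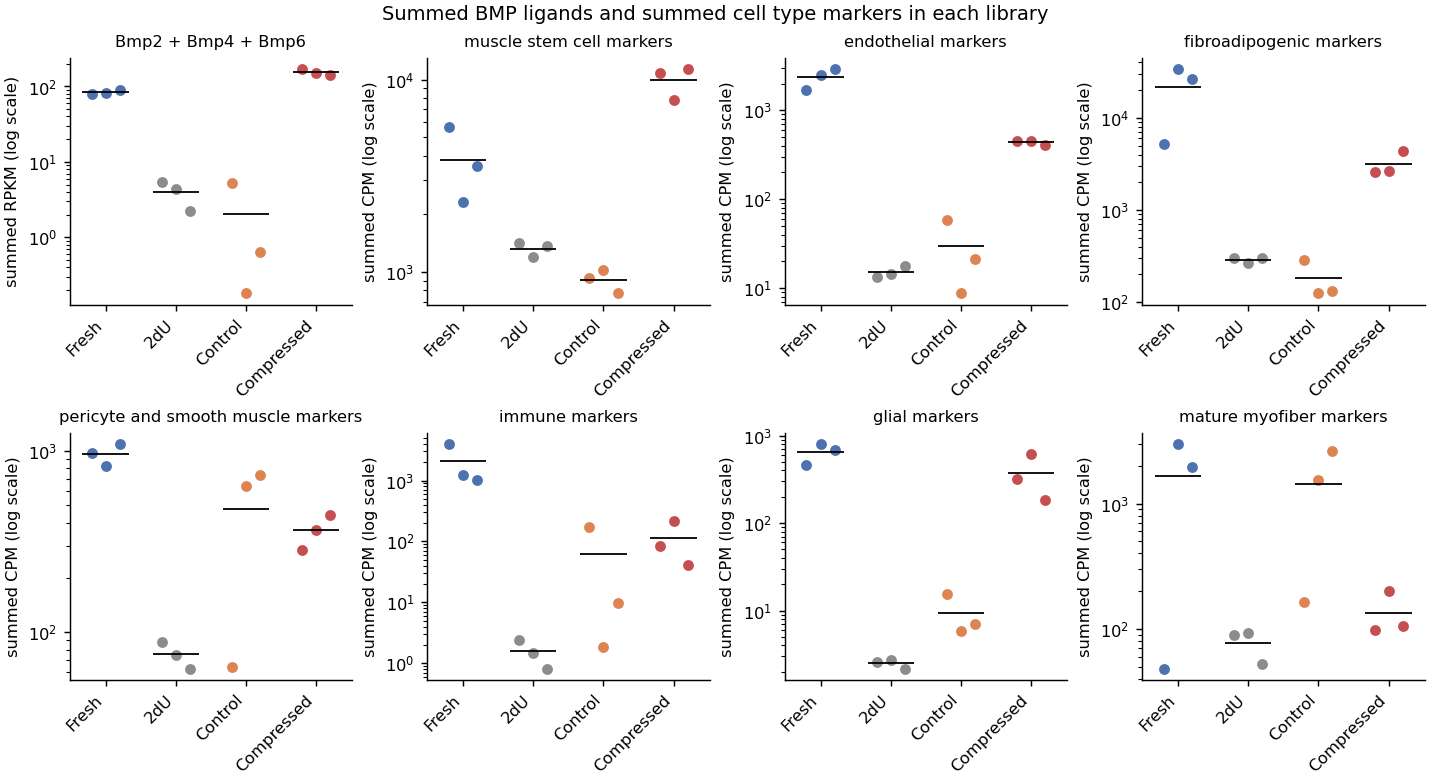
Summed RPKM of Bmp2, Bmp4 and Bmp6 and summed CPM of the 7 marker lists (log scales that differ between panels) in the 3 libraries of each group, with black lines for group means. The ligand sum, the endothelial, fibroadipogenic and glial sums and the MuSC marker sum are higher in all Compressed libraries than in all Control and 2dU libraries.

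Of the 3 inhibitor genes, Bambi was higher after compression and Smad6 and Smad7 were not. Bambi stood at 9.18, 10.8 and 4.76 RPKM in Compressed 4, 5 and 10, at 2.02, 2.28 and 4.15 RPKM in Control 1, 2 and 6, and at 2.31, 2.78 and 2.28 RPKM in 2dU cells. The Fresh libraries held 20.7, 14.3 and 10.4 RPKM and overlapped the Compressed libraries. Its log2 fold change was 1.55 against Control (SE 0.478, edgeR adjusted p = 0.0312) and 1.75 against 2dU (SE 0.480, edgeR adjusted p = 0.0166). The lowest Compressed library exceeded the highest Control library by little, and the call was lost without Control 1, Control 2, Compressed 4 or Compressed 5, with edgeR adjusted p of 0.135, 0.0972, 0.087 and 0.0823. Against 2dU it was lost without any 2dU library, with edgeR adjusted p of 0.0767, 0.059 and 0.0794 without 2dU 1, 2 and 3. It was also lost with library sizes without TMM (edgeR adjusted p = 0.0598) and with no filter on low counts (edgeR adjusted p = 0.0562).

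Smad6, which blocks the BMP Smads in preference to those of TGF-beta, was at 7.50, 1.36 and 7.43 RPKM in Compressed 4, 5 and 10 and at 5.02, 11.4 and 6.39 RPKM in Control 1, 2 and 6. Smad7, which blocks both arms, was at 12.1, 2.35 and 13.4 RPKM and at 8.70, 5.36 and 6.15 RPKM in the same libraries. Compressed 5 was the lowest of the 12 libraries for both genes. The groups overlapped for both, with log2 fold changes against Control of -0.48 for Smad6 (SE 0.641, edgeR adjusted p = 0.57) and 0.47 for Smad7 (SE 0.572, edgeR adjusted p = 0.536). Over the 4 groups the mean of Smad6 ran from 5.01 ± 1.11 RPKM in 2dU to 7.60 ± 3.36 RPKM in Control cells and that of Smad7 from 6.51 ± 0.967 RPKM in 2dU to 12.7 ± 5.52 RPKM in Fresh cells (SD, n = 3), and neither gene was called in any of the 6 comparisons.

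The Id genes did not move as a group. Id3 had the highest RPKM of the 10 genes in all 12 libraries. It stood at 1012, 3439 and 1146 RPKM in Compressed 4, 5 and 10, at 486, 937 and 2827 RPKM in Control 1, 2 and 6, at 459, 515 and 409 RPKM in 2dU and at 481, 512 and 487 RPKM in Fresh cells. Fresh and 2dU libraries were tightly grouped, the Compressed libraries were above all of them, and Control ranged over both. Against 2dU the log2 fold change was 2.02 (SE 0.607, edgeR adjusted p = 0.0259), against Fresh 1.92 (SE 0.605, edgeR adjusted p = 0.067) and against Control 0.40 (SE 0.585, edgeR adjusted p = 0.611). The call against 2dU was lost without Compressed 5 (log2 fold change 1.22, edgeR adjusted p = 0.135) and without 2dU 1, 2 or 3 (edgeR adjusted p of 0.0703, 0.0602 and 0.0807). With library sizes without TMM it was 1.31 (edgeR adjusted p = 0.0513). The difference from Fresh was called without Compressed 4 or Fresh 1 (edgeR adjusted p = 0.0457 in both cases), by DESeq2 (adjusted p = 0.0419) and by edgeR with no filter on low counts (adjusted p = 0.000797).

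Id1, the Id gene most often used as a readout of BMP signaling, was at 119, 450 and 242 RPKM in Compressed 4, 5 and 10 and at 361, 505 and 2070 RPKM in Control 1, 2 and 6. The 2dU libraries held 202, 222 and 233 RPKM and the Fresh libraries 155, 89.1 and 165 RPKM. Control 6 stood well above the others, and Compressed 5 lay between Control 1 and Control 2. Id1 was the member called lower in Compressed than in Control cells, with a log2 fold change of -1.86 (SE 0.625, edgeR adjusted p = 0.0453). That call was lost without Control 6 (log2 fold change -0.69, edgeR adjusted p = 0.316), without Compressed 4 (log2 fold change -1.52, edgeR adjusted p = 0.147) and without Compressed 10 (log2 fold change -1.80, edgeR adjusted p = 0.11), and without Compressed 5 the value was -2.45. Id1 was called higher in Control than in Fresh cells, by 2.84 on the log2 scale (SE 0.649, edgeR adjusted p = 0.00591), and by 1.68 without Control 6 (edgeR adjusted p = 0.0359).

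Id2 was at 69.0, 227 and 251 RPKM in Compressed, at 209, 220 and 666 RPKM in Control, at 176, 201 and 162 RPKM in 2dU and at 426, 55.9 and 70.2 RPKM in Fresh libraries. Fresh 1 was the highest library outside Control 6, and the groups overlapped between Compressed and Control. The log2 fold change between them was -1.002 (SE 0.725, edgeR adjusted p = 0.285), and Id2 was called in none of the 6 comparisons.

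Id4 was expressed at a far lower level than the other Id genes and was lowest in 2dU cells. It was at 7.12, 10.6 and 6.13 RPKM in Compressed, at 11.1, 5.02 and 4.40 RPKM in Fresh, at 0.994, 4.37 and 3.98 RPKM in Control and at 0.221, 0.153 and 0.403 RPKM in 2dU cells. The 2dU libraries were below all others, and all Compressed libraries were above all Control libraries. Id4 was called higher in Compressed than in 2dU cells (log2 fold change 4.93, SE 0.760, edgeR adjusted p = 0.000409) and higher in Control than in 2dU cells (log2 fold change 3.58, SE 0.715, edgeR adjusted p = 0.0251). The call between Control and 2dU was lost without 2dU 1 or 2dU 2 (edgeR adjusted p of 0.0718 and 0.0813). Against Control the value in Compressed cells was 1.35 (SE 0.653, edgeR adjusted p = 0.122), and DESeq2 called it (adjusted p = 0.0305). At the density of the silent families, 14.7 of the 88 Id4 reads of Control 1 would be matched.

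The balance among the Id genes differed between the groups. Id3 made up 83.8%, 83.3% and 69.7% of the summed Id RPKM in Compressed 4, 5 and 10, against 46.0%, 56.2% and 50.8% in Control 1, 2 and 6 and 50.8% to 54.9% in 2dU cells. In Fresh 1, 4 and 5 it made up 44.8%, 77.4% and 67.0%. The Compressed libraries did not overlap those of Control or 2dU, and they overlapped those of Fresh. The ratio of Id3 to Id1, in which library scaling cancels, was 8.47, 7.65 and 4.74 in Compressed libraries and 1.34, 1.85 and 1.37 in Control libraries. With 3 libraries against 3, the two-sided exact permutation p of Compressed cells was 0.1 for both measures against Control and against 2dU, the smallest that this design allows. In Fresh 1, 4 and 5 the ratio was 3.10, 5.75 and 2.95, which overlapped the Compressed libraries. The Fresh ratio did not overlap that of Control or 2dU either (two-sided exact permutation p = 0.1 for each). The summed Id level itself overlapped between Compressed (1207 to 4126 RPKM) and Control libraries (1057 to 5566 RPKM), and was 804 to 939 RPKM in 2dU and 662 to 1073 RPKM in Fresh cells.

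**Figure D3:**
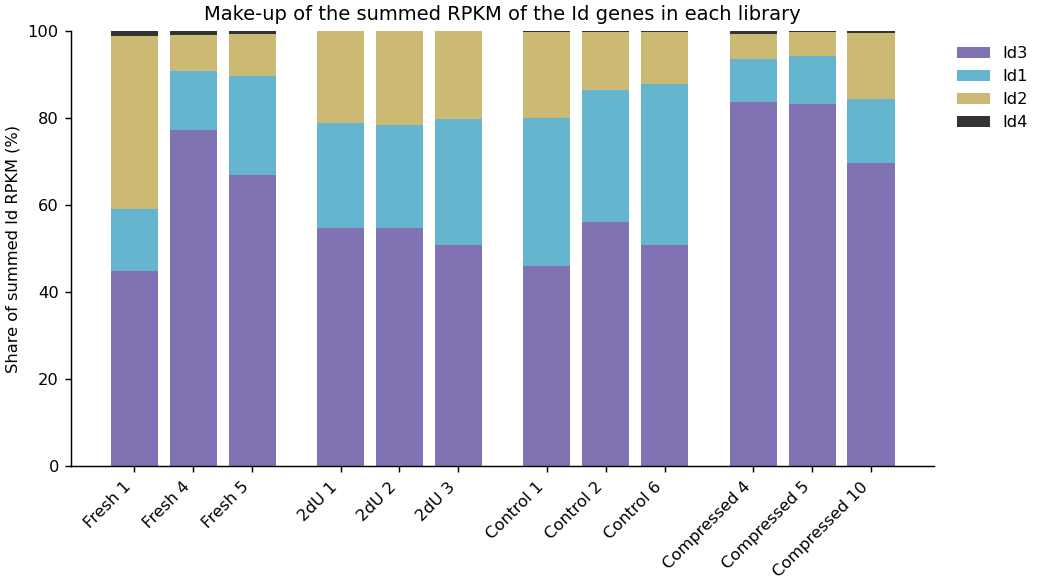
Share of each Id gene in the summed RPKM of Id1, Id2, Id3 and Id4 (%, stacked bars from 0) in each library. Id3 takes 69.7% to 83.8% of the sum in the Compressed libraries and 46.0% to 56.2% in the Control libraries, and Id4 is a thin band at the top, at most 1.03%.

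In all, 4 of the 10 genes were called higher in Compressed than in Control cells (Bmp2, Bmp4, Bmp6 and Bambi) and 1 lower (Id1), where 9.14% of all tested genes were called higher, 13.4% lower and 22.6% in either direction. Libraries did not overlap for 5 genes that were higher (those 4 and Id4) and 0 that were lower, where that held for 12.6% and 29.7% of all tested genes. Against 2dU cells 6 were called higher (those 4, Id3 and Id4) and 0 lower, where 16.0% of all tested genes were called higher, 8.63% lower and 24.6% in either direction. The same 6 genes did not overlap and 0 were lower without overlap, against 18.1% and 17.4% of all tested genes.

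Between Compressed and Fresh cells edgeR called 0 of the 10 in either direction, where 1.94% of all tested genes were called higher, 4.47% lower and 6.4% in either direction. At an unadjusted p under 0.05, 1 was higher there (Id3), and DESeq2 called 1. Id3 and Bmp4 were higher without overlap, 2 of the 10, and 0 were lower, against 8.79% and 18.3% of all tested genes. These comparisons share the Compressed libraries. The median log2 fold change of the 10 genes was 0.91 against Control, 1.88 against 2dU and 0.10 against Fresh, beside -1.05, 0 and -0.76 for all tested genes. The -1.05 depended on the processing. It was -0.24 with reads at the density of the silent families subtracted, and -0.11 with a term for the libraries that held them.

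**Figure D4:**
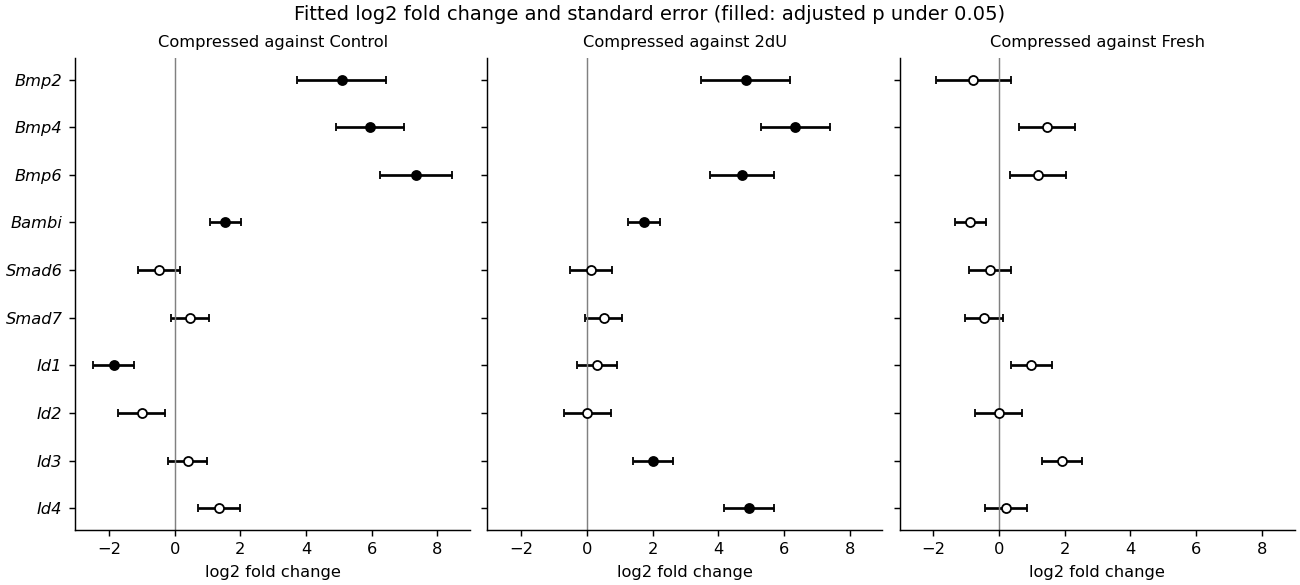
Fitted log2 fold change of each gene (points) with its standard error (bars) for Compressed cells against Control, 2dU and Fresh cells, with filled points for edgeR adjusted p under 0.05. Against Control 5 points are filled, against 2dU 6 and against Fresh 0, and Bmp6 against Control is the largest value at 7.35.

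Among the uncompressed groups the same ligand genes marked the step from Fresh to culture. Bmp2, Bmp4, Bmp6, Bambi and Id4 were called lower in 2dU than in Fresh cells, by -5.62, -4.89, -3.54, -2.62 and -4.71 on the log2 scale, with edgeR adjusted p between 0.000555 and 0.00993. In that comparison 33.3% of all tested genes were called lower, 10.6% higher and 43.8% in either direction. The same 5 genes were lower without overlap and Id1 was higher, against 32.1% and 20.4% of all tested genes. Bmp2, Bmp4, Bmp6 and Bambi were also called lower in Control than in Fresh cells, by -5.87, -4.51, -6.16 and -2.42, with edgeR adjusted p between 0.000955 and 0.00821, where 8.9% of all tested genes were called lower, 11.6% higher and 20.5% in either direction. Without Control 1 the values were -7.76 for Bmp2, -6.95 for Bmp4 and -8.72 for Bmp6, and between 2dU and Fresh cells that of Bmp2 was -7.33 without 2dU 2 and -5.01 without 2dU 3. Those 4 and Id4 were lower without overlap and Id1 was higher, against 22.8% and 21.4% of all tested genes. Between Control and 2dU cells 1 of the 10 was called (Id4, higher), where 1.87% of all tested genes were called higher, 0.243% lower and 2.12% in either direction. Id1, Id2 and Id4 were higher and Bmp6 lower without overlap, against 31.7% and 5.4% of all tested genes. Bmp6 was lower in all 3 Control than in all 3 2dU libraries, with a log2 fold change of -2.62 (SE 0.899, edgeR adjusted p = 0.102). Without Control 1 that value was -5.19 and was called (edgeR adjusted p = 0.00151), and DESeq2 called it too (adjusted p = 0.0286). Id1 was higher in all 3 Control than in all 3 2dU libraries, by 2.16 (SE 0.632, edgeR adjusted p = 0.0775), and was called without Control 1 or Control 2 (edgeR adjusted p of 0.0264 and 0.0455).

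Read across groups, Bmp4 and Bmp6 had their highest mean in Compressed cells (68.2 ± 39.8 and 68.7 ± 41.7 RPKM), followed by Fresh cells (24.9 ± 2.24 and 30.2 ± 7.07 RPKM, SD, n = 3). For Bmp2 and Bambi the order was reversed, with 29.0 ± 6.52 and 15.1 ± 5.16 RPKM in Fresh and 16.8 ± 8.86 and 8.25 ± 3.13 RPKM in Compressed cells (SD, n = 3). These neighbours did not pass the test in any of the 4 cases. In Compressed cells the genes ran from Id3 (1866 ± 1364 RPKM), Id1 (270.3 ± 167 RPKM) and Id2 (182 ± 98.8 RPKM) through the ligands to Smad7 (9.28 ± 6.04 RPKM), Bambi, Id4 (7.96 ± 2.37 RPKM) and Smad6 (5.43 ± 3.53 RPKM). In Control cells the 3 ligand genes came last, below Bambi (2.82 ± 1.16 RPKM), at 1.10 ± 1.55 RPKM for Bmp4, 0.498 ± 0.634 RPKM for Bmp2 and 0.423 ± 0.610 RPKM for Bmp6 (SD, n = 3).

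Other ligands of the BMP family were low in Compressed cells. Of 13 further BMP-type ligand genes 10 were tested and 0 were called higher and 1 lower in Compressed than in Control cells, with 2 and 0 against 2dU. The 1 called lower was Bmp3, at 0 reads in every Compressed and 2dU library and at only 0.00943 to 0.147 RPKM in the Control libraries. The median log2 fold change of this list was -0.63 against Control, beside -1.05 for all tested genes. The shares of all tested genes called higher and lower were 9.14% and 13.4% against Control and 16.0% and 8.63% against 2dU. Gdf10, Bmp5 and Bmp7, the 3 with the highest mean over the 12 libraries, had 9.67 ± 7.07, 3.66 ± 2.76 and 2.05 ± 1.30 RPKM in Fresh cells (SD, n = 3) and no read in any 2dU library. In Compressed cells they ranged up to 0.0252, 0.294 and 0.397 RPKM. Bmp8a and Bmp15 were not called against Control (edgeR adjusted p of 0.215 and 0.14) and did not exceed 0.0546 and 0 RPKM in any Compressed library.

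Receptors and Smads of the BMP arm were higher in part. Of 13 receptors and co-receptors 6 were called higher and 1 lower in Compressed than in Control cells, and 4 and 0 against 2dU. Eng, the endoglin co-receptor known from endothelial cells, was at 18.0 ± 11.7 RPKM in Compressed and 1.18 ± 0.441 RPKM in Control cells (SD, n = 3), a log2 fold change of 3.93 (SE 0.590, edgeR adjusted p = 0.000389). Rgmb, a co-receptor for Bmp2 and Bmp4, rose from 5.38 ± 1.69 to 29.6 ± 8.03 RPKM, by 2.46 on the log2 scale (SE 0.396, edgeR adjusted p = 0.000662). Bmpr2, the main type II receptor, rose by 2.69 (SE 0.553, edgeR adjusted p = 0.00329), while Bmpr1a, a type I receptor, was at 10.4 ± 4.29 and 6.97 ± 2.27 RPKM and was not called (edgeR adjusted p = 0.301). The median of this list was 1.52 against Control, beside -1.05 for all tested genes. Among all tested genes 9.14% were called higher and 13.4% lower against Control, and 16.0% and 8.63% against 2dU.

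Of 14 BMP Smads and their ubiquitin ligases and phosphatases 6 were called higher and 3 lower against Control, and 5 and 0 against 2dU, with a median of 1.36 against Control. For all tested genes that median was -1.05. The matching shares of all tested genes were 9.14% higher and 13.4% lower against Control, and 16.0% and 8.63% against 2dU. Smad1, a BMP-specific Smad, was at 34.2 ± 4.36 RPKM in Compressed and 10.9 ± 1.09 RPKM in Control cells (SD, n = 3), by 1.65 on the log2 scale (SE 0.360, edgeR adjusted p = 0.00475), and was at 32.1 ± 9.36 RPKM in Fresh cells. Nedd4l, a ubiquitin ligase that acts on Smads, rose by 4.76 (SE 0.585, edgeR adjusted p = 8.85e-05), Ctdsp2, a Smad phosphatase, by 2.58, and Lemd3, an inner nuclear membrane protein that binds Smads, by 2.57 (edgeR adjusted p of 0.00309 and 0.00313). Smad4, the shared partner, was called higher at 1.67 (edgeR adjusted p = 0.0467), but of the 6 fits without 1 Compressed or Control library that call held in 1, the one without Control 2 (2.30), and the edgeR adjusted p reached 0.117 without Control 6. Stub1, which targets Smads for degradation, was called lower at -1.72 (edgeR adjusted p = 0.0176), and the call was lost without Control 6 (-1.07), Compressed 4 or Compressed 10 (edgeR adjusted p of 0.13, 0.0754 and 0.066). Without Compressed 4 the value of Nedd4l was 4.17.

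Secreted antagonists were present beside the ligands. Chrdl2, a chordin-like protein that binds BMPs, was at 330.03 ± 149 RPKM in Compressed, 90.9 ± 62.9 RPKM in Fresh, 0.745 ± 0.676 RPKM in Control and 1.03 ± 1.05 RPKM in 2dU cells (SD, n = 3). It rose by 8.79 on the log2 scale against Control (SE 1.45, edgeR adjusted p = 0.000781), and it is also one of the 12 MuSC markers used above. Chrdl1 rose by 5.23 (edgeR adjusted p = 0.00109) from 0.0320 to 1.21 RPKM, and Fstl1 by 2.61 (edgeR adjusted p = 0.00287) from 6.73 to 41.1 RPKM. The value of Chrdl2 was 9.78 without Control 1 and that of Chrdl1 was 4.58 without Compressed 10. Nbl1, an antagonist of the DAN family, was at 216 ± 62.5 RPKM in Compressed and 105 ± 18.0 RPKM in Control cells (SD, n = 3) and was not called (edgeR adjusted p = 0.101). Of the 21 tested genes of this list 5 were called higher and 2 lower against Control, and 10 and 1 against 2dU, with a median of 1.04 against Control. All tested genes had a median of -1.05 there. They were called higher in 9.14% and lower in 13.4% of cases against Control, and in 16.0% and 8.63% against 2dU.

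Other known BMP target genes divided. Of 11 tested, 2 were called higher and 4 lower in Compressed than in Control cells, and 4 and 2 against 2dU, with a median of -1.80 against Control. Over all tested genes the median was -1.05. Calls covered 9.14% (higher) and 13.4% (lower) of all tested genes against Control, and 16.0% and 8.63% against 2dU. Tmem100, a target of BMP9 and BMP10 in endothelial cells, was at 3.48 ± 1.09 RPKM in Compressed and 0.134 ± 0.173 RPKM in Control cells, with 0 reads in every 2dU library (SD, n = 3), and rose by 4.71 against Control (edgeR adjusted p = 0.00885). Hey1, which is also a Notch target, rose by 2.32 from 2.50 ± 1.84 to 12.5 ± 2.30 RPKM (edgeR adjusted p = 0.0198). Atoh8, a basic helix-loop-helix gene induced by BMP, was lower by -1.80 (edgeR adjusted p = 0.0202), at 10.6 ± 4.02 RPKM against 36.8 ± 17.7 RPKM, and Dlx2, a homeobox gene, by -6.59 (edgeR adjusted p = 0.00755), at 0.271 ± 0.425 RPKM against 22.4 ± 13.5 RPKM. The call of Atoh8 was lost without Control 2, Control 6 or Compressed 4 (edgeR adjusted p of 0.0718, 0.0636 and 0.0832), and that of Hey1 without Control 1 or Compressed 4 (edgeR adjusted p of 0.0503 and 0.0516). The log2 fold change of Dlx2 was -9.40 without Compressed 5, -5.98 without Control 6 and -5.97 without Compressed 10, and that of Tmem100 was 6.59 without Control 6. Gata2 was at 1.44 ± 1.32 RPKM and 7.62 ± 2.01 RPKM in the same groups and was not called (edgeR adjusted p = 0.0513).

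Genes of the TGF-beta and activin arm were also called in both directions. Of 21 genes 11 were called higher and 2 lower against Control, and 11 and 0 against 2dU, with a median of 1.87 against Control. All tested genes had a median of -1.05 against Control. Their shares were 9.14% higher and 13.4% lower against Control, and 16.0% and 8.63% against 2dU. Smad3, a Smad of TGF-beta signaling, was at 24.4 ± 12.6 RPKM in Compressed and 0.380 ± 0.0996 RPKM in Control cells (SD, n = 3), and rose by 6.00 (SE 0.669, edgeR adjusted p = 4.13e-05). Tgfbr3, the co-receptor betaglycan, rose by 7.79 (SE 1.09, edgeR adjusted p = 0.000226) and the corepressor Tgif1 by 3.12 (SE 0.468, edgeR adjusted p = 0.000385). Pmepa1, a TGF-beta target that damps that arm, was at 907 ± 490 RPKM in Compressed and 46.1 ± 48.3 RPKM in Control cells (SD, n = 3), a log2 fold change of 4.30 (SE 0.788, edgeR adjusted p = 0.00157). Without Control 1 the values were 9.37 for Tgfbr3 and 5.54 for Pmepa1, and without Compressed 4 that of Tgfbr3 was 7.13.

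The partners that Id proteins hold differed as well. Tcf3, which encodes the E proteins E12 and E47, was lower in Compressed cells, at 7.08 ± 1.14 RPKM against 26.4 ± 12.2 RPKM in Control and 58.03 ± 5.10 RPKM in 2dU cells (SD, n = 3), by -1.90 on the log2 scale against Control (SE 0.417, edgeR adjusted p = 0.00489). Tcf4 was higher, at 8.83 ± 0.946 RPKM against 2.87 ± 0.352 RPKM, by 1.62 (SE 0.343, edgeR adjusted p = 0.00399). Summed over the 3 E protein genes, Compressed libraries held 18.1 to 19.2 RPKM and Control libraries 26.2 to 48.4 RPKM. The ratio of summed Id to summed E protein RPKM overlapped between Compressed (62.9 to 222) and Control libraries (34.4 to 212). It was 11.9 to 16.5 in 2dU and 22.8 to 54.8 in Fresh cells. The two-sided exact permutation p was 0.1, the smallest possible, for both Compressed and Control against 2dU. It was also 0.1 for Compressed against Fresh and for 2dU against Fresh cells. Control and Fresh libraries overlapped (two-sided exact permutation p = 0.4). Of the myogenic factors, Myod1 rose by 1.76 (SE 0.434, edgeR adjusted p = 0.0101), to 3186 ± 1210 RPKM from 944 ± 337 RPKM (SD, n = 3), while Myf5, a myogenic factor of MuSCs and myoblasts, was at 126 ± 46.0 RPKM and 73.3 ± 15.6 RPKM and was not called (edgeR adjusted p = 0.242). Myog, the differentiation factor, stood at 0.378 to 1108 RPKM in Control cells and at no more than 0.0125 RPKM in any Compressed library. It was already low in 2dU cells, at 0.472 to 2.17 RPKM, and ranged from 0.890 to 231 RPKM in Fresh cells.

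Genes with the most similar course over the 12 libraries were sought among the 8853 tested genes that averaged 10 CPM or more, by the root mean square difference of centred log2 CPM, where smaller is more alike. For Bmp4 they were Trf (0.781), Gng4 (0.847) and Klf9 (0.930), for Bmp6 they were Slco2a1 (0.663), Tgfbr3 (0.760) and Trf (0.836), and for Bmp2 they were Aldh1a1 (0.683), Col5a3 (1.06) and Gbp3 (1.11). Trf, the gene for transferrin, was thus named for both Bmp4 and Bmp6. Between the ligand genes the difference was 1.34 for Bmp4 and Bmp6, 1.70 for Bmp2 and Bmp4 and 2.05 for Bmp2 and Bmp6. The named genes were picked as the nearest, so a ligand gene not among them is farther by construction. These larger values therefore do not show that the ligand genes ran apart, and their ranks in the search are not given.

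For the Id genes the nearest were Cox6a1 (0.316), Romo1 (0.332) and Cox4i1 (0.348) for Id1, Bbip1 (0.338), Rps27 (0.341) and Krt10 (0.353) for Id2, and Leng1 (0.281), Dtnbp1 (0.285) and Pdrg1 (0.338) for Id3. Those of Id4 were farther off, with Gas6 at 0.621, Gadd45a at 0.689 and Arid4b at 0.691. For the inhibitors they were Tspan5 (0.415), Zbtb1 (0.422) and Zfp317 (0.424) for Smad6, Apbb2 (0.275), Jade1 (0.363) and Atrn (0.374) for Smad7, and Ifngr1 (0.380), Ppp1r2 (0.423) and Zc3hav1 (0.428) for Bambi. The 3 nearest genes depended on the libraries used: over 13 other settings the number shared with those named here fell as low as 0 for Id1, Id2, Id3 and Smad6 and 1 for the other genes. Among the 10 genes the closest pairs were Smad6 and Smad7 (0.588), Id1 and Id2 (0.768) and Id1 and Id3 (0.885), and Id1 and Bmp2 were the farthest apart (4.33).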

How the data were processed

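RNA-seq libraries of 3 replicates in each of 4 groups were analysed from the read counts per gene that the authors deposited. Per the file headers and the study's methods, reads aligned to mm10 were counted over exons with featureCounts 1.6.4 on GENCODE vM23, without strand, and replicates were not pooled. The labels do not say which libraries come from the same animals or sort, so p-values measure only the spread between these libraries, which may be technical. The paper reports that sorted batches were divided at random among the conditions, so libraries of different groups may share a sort. The main fit did not model such sharing.

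Counts of all 12 libraries were fitted together with the quasi-likelihood test of edgeR 4.0.16 (limma 3.58.1, R 4.3.3), with TMM scaling, filterByExpr by group and Benjamini-Hochberg adjustment over the 22635 genes tested. Calls required an adjusted p below 0.05, in 6 comparisons of 2 groups each. RPKM were computed from the counts, the TMM-scaled library sizes and the exon lengths in the files, and log2 CPM with a prior count of 2. Totals of 12540745 to 62424851 reads set the precision, and 3 reads amount to 0.0563 to 0.362 CPM. Exact permutation tests were used for single values and cannot fall below p = 0.1 with 3 libraries against 3. The edgeR fit was tested on simulated data.

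The 10 genes, the gene lists and the tests were chosen with earlier results of these data known. Beside the 10 genes, the text names in each pathway list the up to 3 genes with the smallest p between Compressed and Control cells and the up to 3 with the highest mean RPKM, and for each of the 10 the 3 genes nearest in centred log2 CPM with a mean of at least 10 CPM, predicted genes left out. Alternatives were DESeq2 1.42.0, library sizes without TMM, no filter on low counts, the replicate number as a block, a term for the 4 libraries with over 0.5 reads per kilobase of the silent families (olfactory, vomeronasal and taste receptors, defensins and keratin-associated proteins), the subtraction of reads at that density, and each library left out in turn.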

Additional observations from a re-analysis of the deposited data

How the results depend on the processing

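Bmp2, Bmp4 and Bmp6 kept their direction in Compressed against Control and 2dU cells under every alternative that was run, and DESeq2 gave no adjusted p for Bmp4 in the 5 comparisons reported. The number of the 10 genes called in Compressed against Control cells, 5 in all, was 3 with the term for libraries with silent-family reads, where Id1 (-1.52, adjusted p = 0.213) and Bambi (1.41, adjusted p = 0.161) were lost. Against Fresh cells it was 1 with no filter on low counts and 1 by DESeq2. Between Control and 2dU cells, where 1 was called, it was 0 without TMM, 3 with no filter, 0 with the silent-family term and 3 by DESeq2.

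Counts over all genes moved more. For Compressed against Control cells (5110) the silent-family term gave 3115. For Compressed against Fresh cells (1449) no filter gave 2794, the term 205 and DESeq2 4160. For Control against 2dU cells (479) they were 171 without TMM, 2066 with no filter, 41 with the term, 132 with silent-family reads subtracted and 2910 by DESeq2. For 2dU against Fresh cells (9922) the term gave 5144. Without TMM the median log2 fold change of all tested genes moved from -1.05 to -1.21 for Compressed against Control, from -0.76 to -1.24 for Compressed against Fresh, from 1.13 to 0.65 for Control against 2dU and from -0.41 to -0.70 for Control against Fresh cells. For Compressed against Control it was -0.24 with silent-family reads subtracted, -0.11 with the term, -0.90 by DESeq2 and -2.02 with no filter. The share of calls that were higher in Compressed than in 2dU cells was 44.7% without TMM (2537 higher and 3139 lower), against 3619 higher and 1954 lower with it. Mean levels without TMM were 269 RPKM for Id1, 220.4 for Id2, 565 for Id3, 7.96 for Smad7 and 3.01 for Bambi in 2dU cells, and 561 for Id3 and 28.2 for Bmp4 in Fresh cells. With silent-family reads subtracted they were 544 RPKM for Id3 and 27.3 for Bmp4 in Fresh cells. The cause of these shifts was not tested.

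With 1 library left out in turn, 3 to 4 of the 10 genes were called in Compressed against Control, 4 to 6 against 2dU, 0 to 1 against Fresh, 0 to 3 in Control against 2dU, 5 to 6 in 2dU against Fresh and 5 to 6 in Control against Fresh cells. In the same order all genes called ranged from 3065 to 5267, 3761 to 5651, 248 to 10063, 153 to 1334, 5060 to 16533 and 3028 to 5287. Id3 in Compressed against Control cells ranged from -0.40 to 1.38, turning to -0.03 without Control 1 and -0.40 without Compressed 5. Mean RPKM in Fresh cells ranged from 474 to 566 for Id3, 26.2 to 37.0 for Bmp2 and 23.6 to 27.6 for Bmp4.

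Same-numbered libraries did not deviate together from their group means. The correlations of their deviations were 0.0322 and -0.149 for Compressed and Fresh 4 and 5, -0.0257 and -0.053 for Control and 2dU 1 and 2, 0.0206 for 2dU and Fresh 1, and -0.424 for Control and Fresh 1, so the numbers were not taken as pairing. Such correlations cannot show whether libraries shared a sort. With the replicate number as a block, which leaves 2 residual degrees of freedom, 3 of the 10 genes were called in Compressed against Control, 2 against 2dU, 2 in Control against 2dU and 2 in 2dU against Fresh cells. The calls of Bmp2 (3.02, adjusted p = 0.31) and Bmp6 (2.74, adjusted p = 0.218) against 2dU were among those lost, with those of Id3 and Bambi. Under this block all genes called were 1926 in Compressed against 2dU, 2739 in 2dU against Fresh and 1261 in Control against Fresh cells. Id2 (2.05), Smad7 (-1.89) and Nbl1 (-0.77) changed sign under the block in Compressed against Control cells, and none of the 3 was called with or without it. In that comparison Eng (1.55, edgeR adjusted p = 0.357) and Fstl1 (1.03, edgeR adjusted p = 0.572) lost their calls under the block. So did Rgmb, Bmpr2, Chrdl1, Ctdsp2, Lemd3, Smad1, Smad4, Stub1, Tmem100, Atoh8, Tcf3, Tcf4 and Myod1. Chrdl2, Nedd4l, Smad3, Tgfbr3, Tgif1, Pmepa1, Dlx2 and Hey1 kept theirs. With the silent-family term Bmpr2, Smad1, Smad4, Stub1, Hey1 and Myod1 were not called.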
